A study of Mus musculus with 6 samples.

Results

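Solute carriers (SLC) are the large set of membrane proteins, numbered by family, that move ions, nutrients, metabolites and drugs across the plasma membrane and the membranes of lysosomes, secretory vesicles, the Golgi and the endoplasmic reticulum. Most do not burn ATP themselves: they let a solute run down its own gradient or couple it to sodium, protons or another solute, and the sodium gradient they use is made by the sodium pump. In the kidney tubule they reclaim filtered sugars, amino acids, phosphate and bicarbonate, and different segments of the tubule are known for different carriers. The genes described here are those whose symbol begins with Slc and a digit, in rows naming 1 gene, with at least 1 FPKM in either condition. FPKM is the number of fragments scaled to transcript length and library size. The mitochondrial carriers of family 25 and 7 other genes (Slc7a11, Slc30a1, Slc39a10, Slc40a1, Slc11a2, Slc2a1 and Slc26a4) were left out. This gave 155 genes of 41 families, out of 310 such rows and 37757 rows in all.

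The level therefore chose the genes, and every value of this comparison is given as a description. Of the 155 genes, 133 reached 1 FPKM in both conditions, 15 only in suspension and 7 only when attached per the authors' deposited table. A gene that passed in only 1 condition tends to differ by construction. The other 155 rows stayed below 1 FPKM in both conditions, 30 of them at 0 in both. Just inside the limit were Slc26a6 (0.813 and 1.02 FPKM, attached and suspended), Slc2a4rg-ps (1.05 and 0.999) and Slc6a20a (1.09 and 0.452) per the authors' deposited table. Slc2a4rg-ps is annotated as a transcribed pseudogene and is counted among the carriers only by its symbol. Just outside it were Slc11a1 (0.0264 and 0.981 FPKM), Slc35f3 (0.0893 and 0.952) and Slc5a9 (0.748 and 0.906) per the authors' deposited table.

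The cells were kidney epithelial cells of C57/Bl6J mice aged 8 weeks, all labelled with the genotype Bim-/- Bmf-/-, a loss of 2 death-promoting BH3-only proteins. They were kept attached (3 libraries) or in suspension culture for 4 h (3 libraries, titled Anoikis, the name for death after loss of anchorage). Both conditions share the genotype, so nothing here compares it with normal cells. The authors' deposited table gives 1 FPKM per gene and condition with their own q, and no value per library was used, so the spread between libraries is not shown and whether the libraries came from separate cultures or animals is not stated. The condition columns carry letters only, and the one ending in S was taken as suspension.

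All 8 markers of tubule epithelium were present, with Krt18 at 773 FPKM attached and 640 FPKM suspended, per the authors' deposited table. Their levels moved in both directions, with 2 called higher, 5 lower and 1 not called. Pax2 (150 to 30.9 FPKM) and Pax8 (104 to 37.1) fell most, and Cdh1 (95.4 to 201 FPKM) rose most, per the authors' deposited table. Of the markers of leukocytes, Ptprc (1.42 to 12.4 FPKM), Cd68 (23.4 to 34.9) and Csf1r (0.729 to 3.25, q = 0.0271) were higher in suspension, while Emr1 and Cd3e stayed under 0.1 FPKM, per the authors' deposited table. The leukocyte markers summed to 25.6 FPKM attached and 50.7 FPKM suspended, and the 4 endothelial markers to 0.354 and 0.298 FPKM, per the authors' deposited table. Of the 4 podocyte markers only Synpo (2.53 to 12.6 FPKM) and of the 5 fibroblast markers only Pdgfra (0.155 to 1.81 FPKM) reached 1 FPKM per the authors' deposited table. The part of these marker changes in the carrier values was not tested. In such bulk RNA, fewer cells of a type and less RNA per cell cannot be told apart.

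Promoters are shown for the 3 carriers with the largest called rise, Slc26a1, Slc20a1 and Slc43a2, and for Slc45a3, which fell most, among carriers of at least 5 FPKM in the higher condition; the choice used these values and not the letters in the windows. Each runs from 250 bases before to 50 bases after an annotated RefSeq start (build GRCm38.p6), on the gene's own strand. Each of these genes has 2 windows, and the first is shown. The windows are chr5:108675316-108675615 (minus strand) for Slc26a1, chr2:129198523-129198822 (plus) for Slc20a1, chr11:75531444-75531743 (plus) for Slc43a2 and chr1:131962665-131962964 (plus) for Slc45a3. Capitals mark CACGTG, the E-box letters, and TGACNNNGC, the antioxidant response element core, on either strand.
Slc26a1: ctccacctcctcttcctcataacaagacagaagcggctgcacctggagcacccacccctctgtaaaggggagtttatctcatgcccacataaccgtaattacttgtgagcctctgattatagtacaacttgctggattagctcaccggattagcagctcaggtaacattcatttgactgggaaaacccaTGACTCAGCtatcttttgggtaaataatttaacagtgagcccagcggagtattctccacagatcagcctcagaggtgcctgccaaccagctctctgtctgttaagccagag
Slc20a1: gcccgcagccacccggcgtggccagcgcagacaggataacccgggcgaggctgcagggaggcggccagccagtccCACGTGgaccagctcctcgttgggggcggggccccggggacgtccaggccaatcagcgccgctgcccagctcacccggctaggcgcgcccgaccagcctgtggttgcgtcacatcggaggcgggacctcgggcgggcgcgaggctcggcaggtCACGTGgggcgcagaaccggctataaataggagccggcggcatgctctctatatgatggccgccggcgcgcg
Slc43a2: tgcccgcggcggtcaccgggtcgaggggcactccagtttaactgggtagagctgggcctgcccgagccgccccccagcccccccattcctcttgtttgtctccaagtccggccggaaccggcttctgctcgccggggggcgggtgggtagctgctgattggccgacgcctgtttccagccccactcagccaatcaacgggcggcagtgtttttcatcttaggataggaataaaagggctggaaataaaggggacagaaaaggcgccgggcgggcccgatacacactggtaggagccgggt
Slc45a3: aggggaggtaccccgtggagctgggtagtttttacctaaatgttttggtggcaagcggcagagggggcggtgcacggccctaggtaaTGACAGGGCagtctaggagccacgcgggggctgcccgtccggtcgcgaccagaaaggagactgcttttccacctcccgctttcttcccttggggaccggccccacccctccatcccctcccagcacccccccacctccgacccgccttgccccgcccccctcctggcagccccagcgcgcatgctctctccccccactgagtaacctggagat
CACGTG occurs 2 times in the window of Slc20a1 and 0 times in the other windows shown. The windows of Slc26a1 and Slc45a3, which moved in opposite directions, hold 1 match each of the antioxidant core, and that of Slc43a2 holds neither motif. The marked stretch of Slc26a1 also holds the AP-1 letters TGANTCA. The second windows, not shown, differ: that of Slc26a1 holds both CACGTG and the antioxidant core. That of Slc20a1 holds the antioxidant core without CACGTG, and those of Slc43a2 and Slc45a3 hold neither.

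Carriers moved in both directions in about equal numbers. Of the 155 genes, 57 were called higher and 52 lower in suspension at q below 0.05, and 46 were not called, per the authors' deposited table. Over all 14748 tested rows, 24.7% were called higher, 26.3% lower and 51.0% in either direction, and among tested genes of at least 1 FPKM in either condition 24.9% were called higher, 29.5% lower and 54.4% in either direction per the authors' deposited table. Since the level rule used the same values, nothing is read from the difference between the carriers' counts and these shares. Of these calls, 34 rises and 13 falls were at least 2-fold, where all tested rows had 12.4% and 7.12%. At least 4-fold were 12 rises and 4 falls per the authors' deposited table, and no share of all tested rows was taken at 4-fold. Several of the 12 rises, among them Slc26a1, Slc2a6 and Slc41a2, reached 1 FPKM only in suspension, so these follow in part from the rule. Among carriers of at least 1 FPKM in both conditions, 44 were called higher and 48 lower. The shares of all tested rows called, 24.7% higher and 26.3% lower, stand beside the counts of each group of families below. Every called gene below has q = 0.000185, the smallest value per the authors' deposited table and shared by 75 of the carriers, unless another q is given.

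The median log2 fold change of the carriers was 0.06 (quartiles -0.57 and 0.87), beside -0.08 (quartiles -0.49 and 0.43) for 12442 tested genes of the same minimum level, per the authors' deposited table. The sign of the carriers' median was not stable, since it was -0.12 with a minimum of 5 FPKM. The spread around it was wide in both directions, and the upper tail reached further. By level, of the 44 with a mean under 5 FPKM 20 were called higher and 8 lower, and of the 47 with a mean of at least 20 FPKM 14 were called higher and 22 lower, per the authors' deposited table. The limit of 1 FPKM acts on the first group, which is also measured least precisely. The standard error of log2 implied by the deposited p had a median of 0.26 in that group, 0.15 from 5 to 20 FPKM and 0.13 above.

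**Figure D1:**
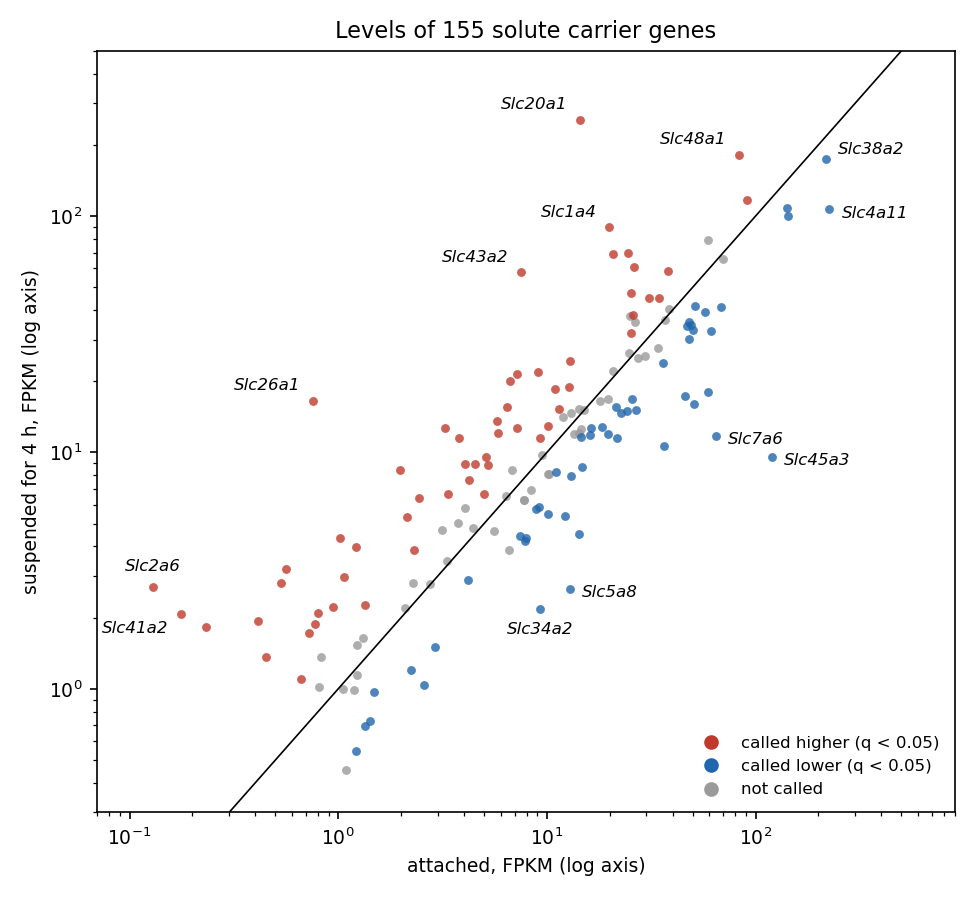
FPKM of the 155 carriers in attached (x) and suspended (y) cells on log axes, with 1 point per gene from the authors' deposited table, coloured by the authors' call; the line marks equal levels. Slc20a1 rose from 14.4 to 256 FPKM to the top of the suspended scale, and Slc45a3 fell from 120 to 9.61 FPKM.

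The order of the carriers by level changed at the top. In attached cells Slc4a11 (226 FPKM), Slc38a2 (217), Slc44a2 (143), Slc9a3r1 (142) and Slc45a3 (120) stood highest per the authors' deposited table. In suspended cells the order was Slc20a1 (256 FPKM), Slc48a1 (182), Slc38a2 (175), Slc3a2 (117) and Slc9a3r1 (108) per the authors' deposited table. Of the 10 highest carriers, 6 were the same in both conditions. Slc20a1 went from rank 60 to rank 1 and Slc45a3 from rank 5 to rank 82. Summed over all 155 genes the level was 3286 FPKM attached and 3355 FPKM suspended, so the carriers' total stayed nearly level while its makeup shifted (authors' deposited table).

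**Figure D2:**
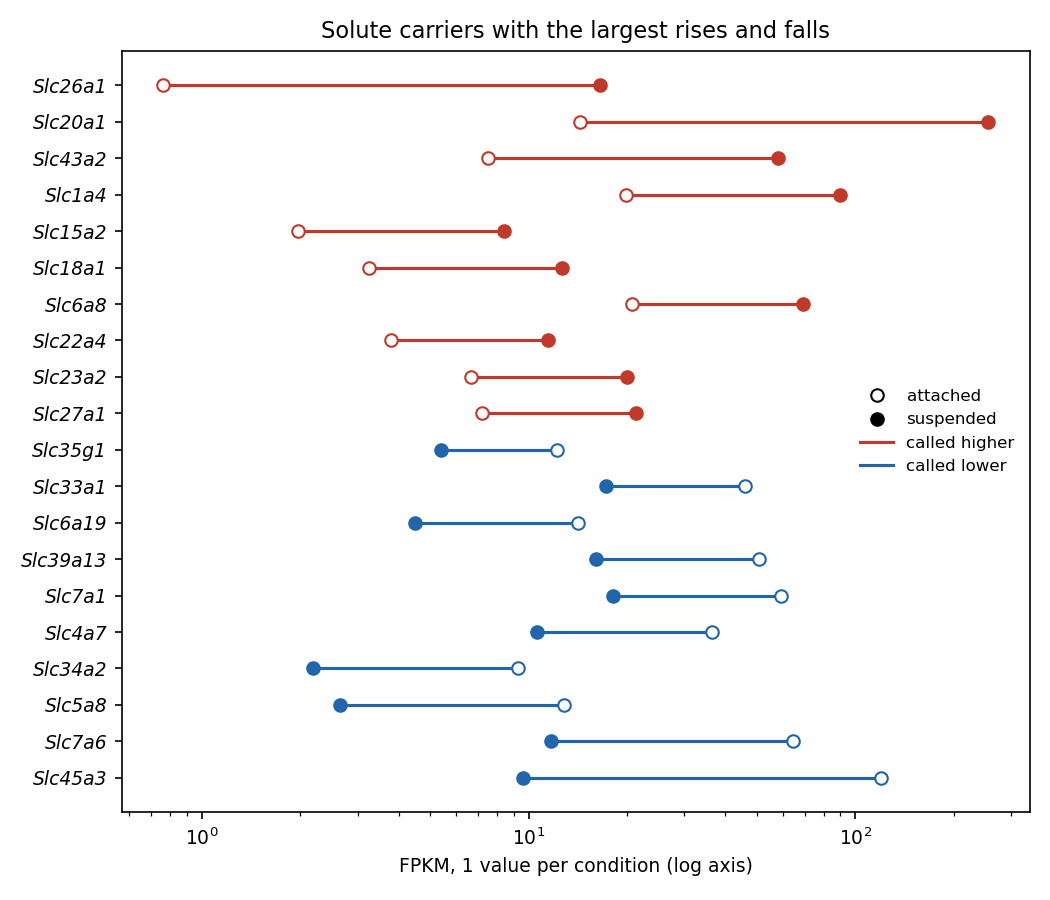
FPKM in attached (open circles) and suspended cells (filled circles), on a log axis, of the 10 carriers with the largest rise and the 10 with the largest fall among called genes of at least 5 FPKM in the higher condition, from the authors' deposited table. Slc26a1 (21.8-fold, from an attached level under 1 FPKM) and Slc20a1 (17.8-fold) are the top rises, and Slc45a3 is the top fall.

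The 3 phosphate carriers moved in both directions. Slc20a1, a sodium-phosphate cotransporter of most cells, was listed at 14.4 FPKM attached and 256 FPKM suspended per the authors' deposited table (17.8-fold higher). Its paralogue Slc20a2 rose far less, from 34.6 to 45.1 FPKM (1.30-fold, q = 0.00308), per the authors' deposited table. Attached cells thus had more Slc20a2 than Slc20a1 transcript per length, and suspended cells the reverse. The epithelial phosphate carrier Slc34a2 went the other way, from 9.27 to 2.18 FPKM (4.25-fold lower), per the authors' deposited table. The deposited row of Slc20a1 spans chromosome 2, positions 129198764 to 129235604 (mm10, plus strand), and no other protein-coding gene overlaps it.

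Amino acid, amine and peptide carriers split evenly. Of 28 genes in families 1, 6, 7, 15, 36, 38 and 43, 8 rose, 8 fell and 12 were not called per the authors' deposited table. Slc43a2, a facilitator of large neutral amino acids, was listed at 7.51 FPKM attached and 58.0 FPKM suspended (7.71-fold higher) per the authors' deposited table. Its row spans chromosome 11, positions 75531694 to 75577575, and holds the microRNA Mir3971 on the same strand. Slc1a4, which exchanges small neutral amino acids, rose from 19.9 to 89.7 FPKM (4.50-fold) per the authors' deposited table, while its paralogue Slc1a5, a glutamine exchanger, stood at 24.8 and 26.3 FPKM (q = 0.642). The peptide carrier Slc15a2 rose from 1.97 to 8.39 FPKM and the creatine carrier Slc6a8 from 20.8 to 69.4 FPKM per the authors' deposited table.

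Carriers of the cationic and related exchangers in family 7 moved down or were not called. Slc7a6, an exchanger of cationic for neutral amino acids, fell from 64.3 to 11.7 FPKM (5.49-fold lower) per the authors' deposited table. Slc7a1, the main uptake route for arginine and lysine in many cells, fell from 59.4 to 18.1 FPKM (3.29-fold lower) per the authors' deposited table. The other 4 members, Slc7a3, Slc7a4, Slc7a7 and Slc7a6os, were not called. Slc7a6os is not a carrier: it is the gene on the opposite strand beside Slc7a6, separated by a gap of 1733 bases, and it stood at 14.3 and 12.1 FPKM (q = 0.158) per the authors' deposited table. Slc3a2, the heavy chain that brings several family 7 exchangers to the cell surface, rose slightly from 91.4 to 117 FPKM (1.28-fold, q = 0.00213) per the authors' deposited table. Its cystine-carrying partner Slc7a11, outside the set, rose 17.16-fold per the authors' deposited table.

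Falls in family 6 included carriers known from the kidney. Slc6a19, the neutral amino acid carrier of the proximal tubule, fell from 14.2 to 4.51 FPKM (3.15-fold lower) per the authors' deposited table. Slc6a6, which takes up taurine, fell from 61.2 to 32.7 FPKM per the authors' deposited table. Among carriers that were named only after seeing their values, the betaine carrier Slc6a12 fell from 57.0 to 39.1 FPKM (q = 0.000355) and the vesicle carrier Slc6a17 rose from 1.02 to 4.35 FPKM per the authors' deposited table.

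In family 38, sodium-coupled carriers of neutral amino acids, the most abundant member Slc38a2 fell from 217 to 175 FPKM (1.24-fold lower, q = 0.00757) per the authors' deposited table. Slc38a6 (26.1 to 61.0 FPKM) and the lysosomal glutamine carrier Slc38a7 (9.04 to 21.8 FPKM), both named after their values were seen, rose per the authors' deposited table. The neighbour of Slc38a2 on chromosome 15, Slc38a1, stood at 27.2 and 25.1 FPKM (q = 0.365) per the authors' deposited table. In family 36 the proton-coupled lysosomal carrier Slc36a1 rose from 4.06 to 8.94 FPKM and Slc36a4 fell from 7.41 to 4.45 FPKM per the authors' deposited table; both were named after their values were seen.

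**Figure D3:**
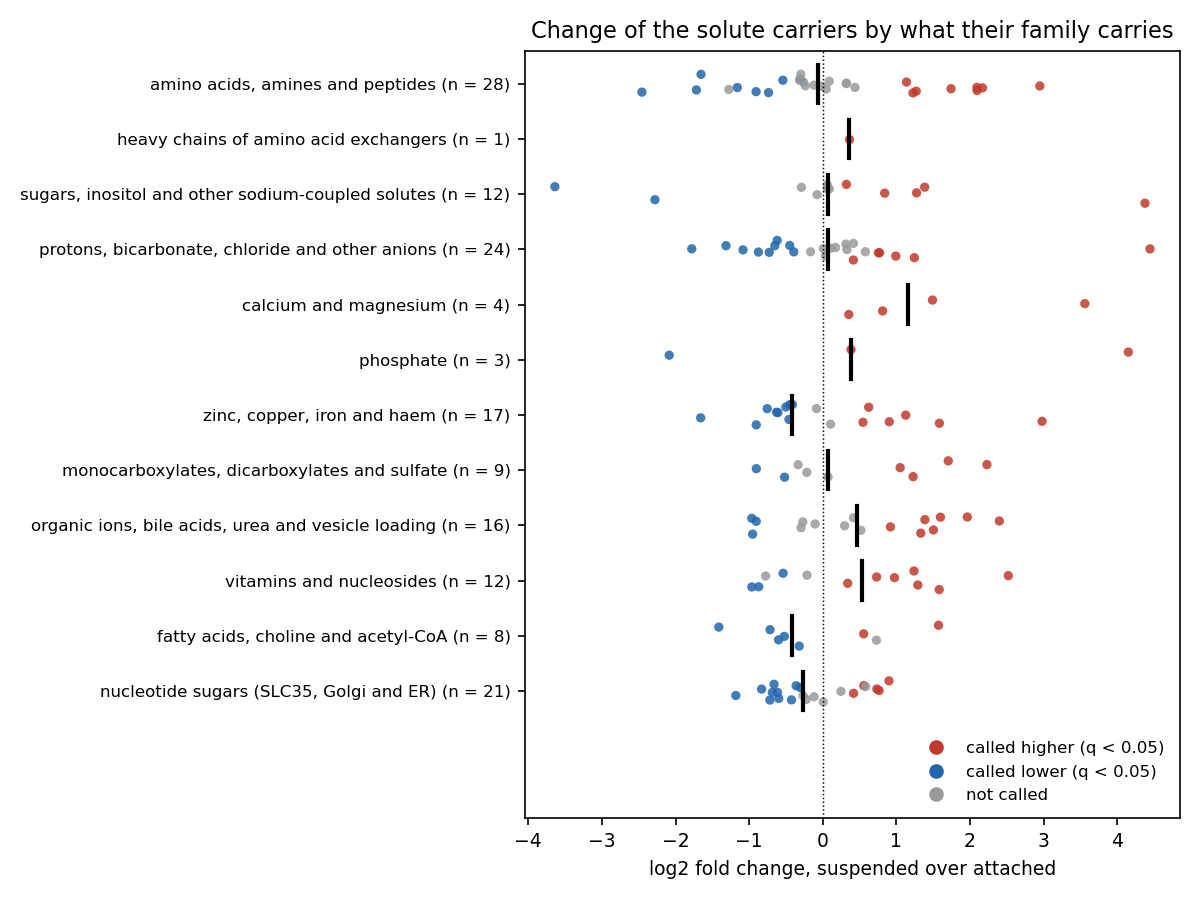
Log2 fold change, suspended over attached, of each carrier per the authors' deposited table, grouped by what its family is known to carry and coloured by the authors' call; black bars are group medians and the dotted line is no change. Vertical scatter within a group carries no meaning. All 4 calcium and magnesium carriers were called higher, and 10 of 21 SLC35 genes were called lower. Among the former, Slc41a2 reached 1 FPKM only in suspension. Over all tested rows 24.7% were called higher and 26.3% lower.

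Sugar and sodium-coupled solute carriers held the largest fall. Of 12 genes in families 2, 5, 37, 45 and 50, 5 rose, 2 fell and 5 were not called per the authors' deposited table. The pseudogene Slc2a4rg-ps is among the 5 not called. Slc45a3, known as prostein and placed in a sugar carrier family, was listed at 120 FPKM attached and 9.61 FPKM suspended (12.5-fold lower) per the authors' deposited table. Its row spans chromosome 1, positions 131962967 to 131982963 (plus strand), with no other protein-coding gene in it. The other member of the family, Slc45a4, stood at 38.6 and 40.2 FPKM (q = 0.804) per the authors' deposited table. Slc5a8, which takes up lactate and other monocarboxylates with sodium, fell from 12.9 to 2.65 FPKM (4.85-fold lower) per the authors' deposited table.

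Among the rises, Slc37a1, a sugar-phosphate exchanger of the endoplasmic reticulum, went from 6.43 to 15.5 FPKM per the authors' deposited table. The vitamin carrier Slc5a6 went from 2.45 to 6.39 FPKM (q = 0.000355) per the authors' deposited table, and 396 bases of its exons are shared with Atraid on the other strand. The intracellular glucose transporter Slc2a8 rose from 4.25 to 7.62 FPKM (q = 0.00476) per the authors' deposited table. Slc2a6, also a glucose transporter inside cells and named after its values were seen, was listed at 0.129 and 2.69 FPKM per the authors' deposited table. It was the lowest of the 155 genes when attached, so its fold rests on a value near 0.

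Of 24 genes grouped as carriers of protons, bicarbonate, chloride and other anions (families 4, 9, 12 and 26), 6 rose, 9 fell and 9 were not called per the authors' deposited table. These 24 include 2 scaffolds and the adaptor gene Slc4a1ap, which was not called (15.1 FPKM in both conditions, q = 0.971). Slc26a1, a sulfate carrier, had the largest deposited fold, from 0.760 to 16.5 FPKM (21.8-fold), per the authors' deposited table. It reached 1 FPKM only in suspension, and its fold rests on the low attached level: on the scale of log2 of FPKM plus 1 its change was 3.32, below the 4.06 of Slc20a1. Its row spans chromosome 5, positions 108629770 to 108684557 (minus strand), and overlaps the protein-coding genes Tmem175, Dgkq and Idua. Of the 4050 exon bases of Slc26a1, 141 are shared with Idua on the other strand. Idua itself was listed at 4.40 and 7.34 FPKM (q = 0.0145) per the authors' deposited table. The sulfate carrier Slc26a2 rose less, from 3.34 to 6.65 FPKM, per the authors' deposited table.

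Slc4a11, the most abundant of the 155 genes in attached cells, fell from 226 to 107 FPKM (2.12-fold lower) per the authors' deposited table. Slc4a7, a sodium-bicarbonate cotransporter, fell from 36.4 to 10.6 FPKM (3.43-fold lower), while Slc4a4, the cotransporter of the proximal tubule, rose from 11.5 to 15.3 FPKM (q = 0.000831), per the authors' deposited table. Of the 5 genes of family 12, the family known for cation-chloride cotransporters, 4 fell and 0 rose, led in level by Slc12a4 (68.1 to 41.1 FPKM) per the authors' deposited table. Slc12a2, named after its values were seen, fell from 46.8 to 34.3 FPKM per the authors' deposited table. The scaffolds Slc9a3r1 (142 to 108 FPKM, q = 0.000355) and Slc9a3r2 (10.1 to 5.50 FPKM), which anchor sodium-proton exchangers and other carriers and carry nothing themselves, both fell per the authors' deposited table. The Golgi sodium-proton exchanger Slc9a8 rose from 10.9 to 18.6 FPKM per the authors' deposited table.

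Calcium and magnesium carriers were few, and all 4 were called higher per the authors' deposited table, where 24.7% of all tested rows were. Slc41a2 passed the limit of 1 FPKM only in suspension, so its rise follows in part from the rule. With at least 1 FPKM in both conditions 3 of 3 were called higher, and of the 4 rises 2 were 2-fold. The magnesium carriers of family 41 went from 7.23 to 12.7 FPKM (Slc41a1), from 0.176 to 2.07 (Slc41a2) and from 1.06 to 2.98 FPKM (Slc41a3) per the authors' deposited table; the last 2 were named after their values were seen. Slc8b1, a sodium-calcium exchanger of the mitochondrion rather than of the cell surface, went from 10.1 to 12.9 FPKM (q = 0.0178) per the authors' deposited table.

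Metal carriers of the set were called in both directions. Of 17 genes, 6 rose, 9 fell and 2 were not called, beside 24.7% called higher and 26.3% called lower of all tested rows. With at least 1 FPKM in both conditions, 4 of 15 genes were called higher and 9 lower. Of the 6 rises 3 were 2-fold, and of the 9 falls 1 was. The levels of the 17 genes summed to 486 FPKM attached and 525 FPKM suspended per the authors' deposited table. Slc48a1, which moves haem out of lysosomes, was listed at 83.3 FPKM attached and 182 FPKM suspended (2.18-fold higher) per the authors' deposited table. Without it the other 16 genes summed to 403 FPKM attached and 343 FPKM suspended, so within the set the direction of the sum rests on Slc48a1. These counts and sums do not hold the metal carriers that were left out. Of those, Slc30a1 (2.50 to 39.9 FPKM), Slc40a1 (8.53 to 103) and Slc11a2 (29.4 to 58.2) were called higher. Slc39a10 (35.8 to 10.8 FPKM) was called lower, all per the authors' deposited table. Only 29 of the 2751 exon bases of Slc48a1 are shared with Hdac7 on the other strand, which fell from 43.2 to 22.6 FPKM (q = 0.000355) per the authors' deposited table. The copper carriers fell: Slc31a1, the copper uptake protein named after its values were seen, from 11.0 to 8.28 FPKM (q = 0.0140) and Slc31a2 from 14.7 to 8.69 FPKM per the authors' deposited table.

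Among zinc carriers, family 30 fills vesicles and exports zinc, and family 39 brings zinc into the cytosol. Of 5 family 30 genes 2 rose, Slc30a4 (38.1 to 58.8 FPKM) and Slc30a5 (30.7 to 44.8), and 3 fell, such as Slc30a7 (8.90 to 5.76 FPKM), per the authors' deposited table. Of 9 family 39 genes 3 rose, 4 fell and 2 were not called per the authors' deposited table. Slc39a13, a zinc carrier of the Golgi, fell from 50.8 to 16.1 FPKM (3.16-fold lower) per the authors' deposited table, and 215 of its 4869 exon bases are shared with Psmc3, which fell from 109 to 86.2 FPKM (q = 0.0171). The surface zinc carrier Slc39a3 rose from 5.11 to 9.55 FPKM per the authors' deposited table. Slc39a4, the zinc uptake protein of the intestine named after its values were seen, rose from 0.231 to 1.82 FPKM per the authors' deposited table. The most abundant family member, Slc39a1, stood at 70.1 and 66.1 FPKM (q = 0.531) per the authors' deposited table.

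Of the 9 monocarboxylate carriers of family 16, 4 rose, 2 fell and 3 were not called per the authors' deposited table. With at least 1 FPKM in both conditions, 2 of 7 genes were called higher and 2 lower. Slc16a10, which carries aromatic amino acids, rose from 5.85 to 12.1 FPKM and Slc16a12 fell from 18.3 to 12.8 FPKM per the authors' deposited table. The lactate carriers, named after their values were seen, differed: Slc16a3 rose from 0.412 to 1.93 FPKM, and the more abundant Slc16a1 stood at 29.7 and 25.5 FPKM (q = 0.0916) per the authors' deposited table.

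Organic ion, urea and vesicle carriers gave 7 rises and 3 falls in 16 genes per the authors' deposited table, beside 24.7% and 26.3% of all tested rows. With at least 1 FPKM in both conditions, 5 of 13 genes were called higher and 2 lower. Slc22a23, an orphan of the organic ion family, rose from 24.5 to 69.4 FPKM (2.83-fold) per the authors' deposited table. Slc22a4, which takes up ergothioneine, rose from 3.80 to 11.5 FPKM, and its neighbour Slc22a21, 2790 bases away on chromosome 11 and named after its values were seen, from 0.531 to 2.80 FPKM per the authors' deposited table. The carnitine carrier Slc22a5 of the same cluster stood at 4.05 and 5.80 FPKM (q = 0.0619) per the authors' deposited table. Slc22a4, Slc22a5 and Slc22a21 are close paralogues, so reads shared among them make their values uncertain. The vesicular amine carrier Slc18a1 rose from 3.25 to 12.7 FPKM per the authors' deposited table. Its gene overlaps Atp6v1b2, which rose from 52.7 to 170 FPKM per the authors' deposited table, although no annotated exon bases are shared. The urea carrier Slc14a2 fell from 7.87 to 4.21 FPKM per the authors' deposited table.

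Vitamin and nucleoside carriers gave 7 rises and 3 falls in 12 genes per the authors' deposited table, beside 24.7% and 26.3% of all tested rows. Some of the rises were of genes that reached 1 FPKM only in suspension. With at least 1 FPKM in both conditions, 4 of 8 genes were called higher and 2 lower. Slc23a2, the vitamin C carrier, rose from 6.69 to 20.01 FPKM (2.99-fold) per the authors' deposited table. The nucleoside carriers Slc29a1 (5.74 to 13.5 FPKM) and Slc29a3 (4.55 to 8.92 FPKM) rose per the authors' deposited table. The thiamine carrier Slc19a2 rose from 25.4 to 32.1 FPKM (q = 0.00649) and the riboflavin carrier Slc52a2 fell from 7.97 to 4.36 FPKM per the authors' deposited table.

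Carriers of lipid building blocks were called in both directions. Of 8 genes for fatty acids, choline and acetyl-CoA, 2 rose and 5 fell per the authors' deposited table, beside 24.7% and 26.3% of all tested rows. Of the 5 falls 1 was 2-fold, and of the 2 rises 1 was. Slc33a1, which brings acetyl-CoA into the endoplasmic reticulum, fell from 46.1 to 17.3 FPKM (2.66-fold lower) per the authors' deposited table. The fatty acid transport proteins split, with Slc27a1 rising from 7.19 to 21.4 FPKM and Slc27a4 falling from 25.6 to 16.9 FPKM per the authors' deposited table. The choline carrier-like Slc44a2 fell from 143 to 99.8 and Slc44a3 from 19.6 to 11.9 FPKM, while the choline carrier Slc44a1 rose from 25.8 to 38.0 FPKM, per the authors' deposited table.

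Family 35, known for carrying nucleotide sugars into the Golgi and endoplasmic reticulum for glycosylation, had 21 genes, of which 5 rose, 10 fell and 6 were not called per the authors' deposited table. Most changes were small, and only Slc35g1 (12.2 to 5.38 FPKM) was called with a 2-fold change per the authors' deposited table. Slc35a1, which carries the sialic acid donor, fell from 13.1 to 7.94 FPKM, and Slc35a5 from 26.8 to 15.1 FPKM, per the authors' deposited table. Slc35e4 (25.3 to 47.2 FPKM) and Slc35d2 (5.23 to 8.88 FPKM) rose per the authors' deposited table.

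Genes that drive, anchor or regulate carriers were taken from lists chosen with earlier results of these data known, and their counts stand beside the 24.7% called higher, 26.3% called lower and 51.0% called either way over all tested rows. Of the beta subunits of the sodium pump, Atp1b1, which was more abundant than any carrier, fell from 1159 to 706 FPKM and Atp1b3 from 123 to 84.9 FPKM per the authors' deposited table. The pump's regulator Fxyd2 fell from 1780 to 1393 FPKM (q = 0.00185). In all, 4 of 5 tested genes of this list fell, and Fxyd6 rose (0.284 to 1.56 FPKM), per the authors' deposited table. None of the 4 falls was 2-fold. The carrier chaperones and scaffolds changed little, with 2 of 7 tested genes called, both higher, led by Arl6ip1 (162 to 219 FPKM) per the authors' deposited table. Bsg, the chaperone of the lactate carriers, stood at 364 and 319 FPKM (q = 0.120) per the authors' deposited table and was named after its values were seen.

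Of 13 tested kinases and ligases that act on carriers, 6 rose and 6 fell per the authors' deposited table. Among the rises, Klhl3 (0.0427 to 0.498 FPKM, q = 0.000831) and Wnk2 (0.0395 to 0.380, q = 0.00128) stayed under 1 FPKM in both conditions. The kinases Stk39 (64.5 to 35.3 FPKM) and Oxsr1 (32.3 to 19.0), which phosphorylate family 12 cotransporters and were named after their values were seen, fell per the authors' deposited table. Sgk2 rose from 1.82 to 4.00 FPKM per the authors' deposited table. Of 17 tested genes of amino acid sensing at the lysosome, 10 rose and 5 fell, 15 called in all against that 51.0%, per the authors' deposited table. Rragd, a Rag GTPase, rose from 0.363 to 6.31 FPKM, and Fnip2 (6.23 to 28.0) and Fnip1 (9.16 to 35.8 FPKM), partners of folliculin, rose too per the authors' deposited table.

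NFAT5, the factor that answers hypertonicity, was listed with some of its known targets and with genes for organic osmolytes. Of the 8 tested genes of this list, 7 fell and 0 rose per the authors' deposited table. Akr1b3, which makes sorbitol, fell from 673 to 319 FPKM, Hspa4l from 89.8 to 39.1 and Nfat5, named after its values were seen, from 47.7 to 29.7 FPKM per the authors' deposited table. The carriers in it are Slc6a6, Slc6a12, Slc38a2 and Slc14a2, given above, and Slc6a9, which stood at 26.3 and 35.6 FPKM (q = 0.134) per the authors' deposited table. Of the 7 falls, 2 were 2-fold. Slc5a3, the inositol carrier that is known as a target of NFAT5, shares its row with Mrps6 and was not counted.

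**Figure D4:**
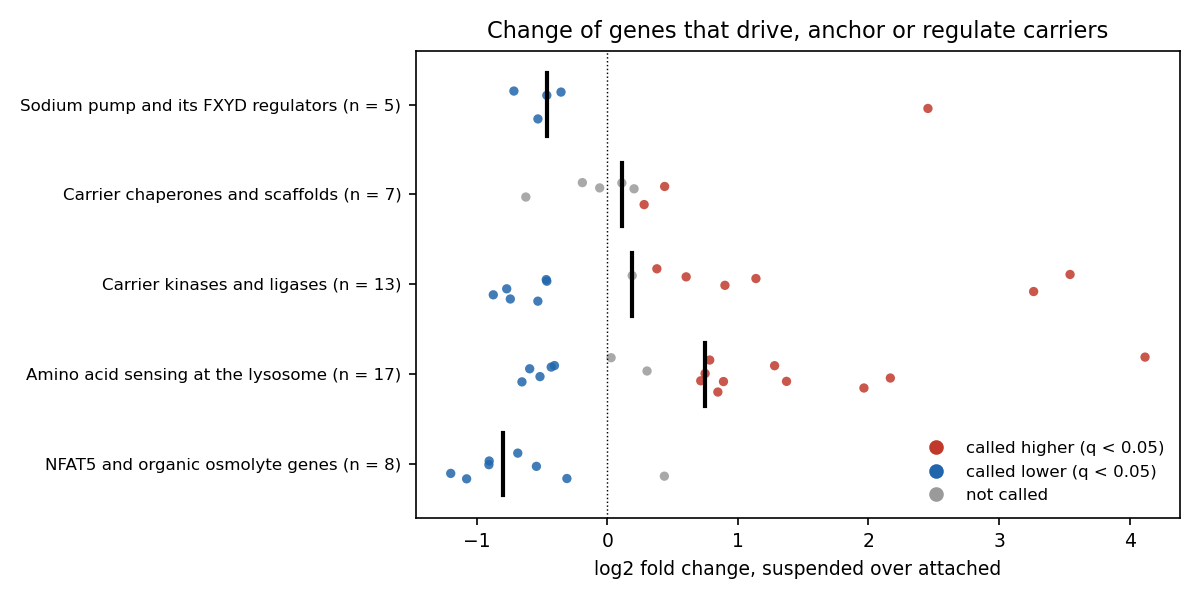
Log2 fold change, suspended over attached, of tested genes in 5 lists of carrier partners from the authors' deposited table, coloured by the authors' call, with black bars at list medians. In the NFAT5 list 7 of 8 genes lie to the left as called lower, and in the lysosomal sensing list 10 of 17 lie to the right as called higher.

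Carriers that define tubule segments were mostly at or near 0. Of 26 carriers known from the proximal tubule, 8 reached 1 FPKM in either condition per the authors' deposited table. Slc34a1, Slc5a2, Slc22a6 and Slc9a3, which carry phosphate, glucose, organic anions and sodium there, were listed at 0 in both conditions per the authors' deposited table. The most abundant were Slc6a19, Slc4a4, Slc7a7 (10.1 and 8.12 FPKM, q = 0.285) and, in suspension, Slc26a1 per the authors' deposited table. Of 13 tested genes in the list, 4 were called higher and 3 lower per the authors' deposited table, beside 24.7% and 26.3% of all tested rows. Among those called, Slc7a8 (0.0501 to 0.592 FPKM), Slc7a9 (0.274 to 0.695, q = 0.00769) and Slc6a18 (0.527 to 0.168) stayed under 1 FPKM in both conditions. Of 9 carriers of the distal nephron and collecting duct, 3 reached 1 FPKM: Slc12a2, Slc14a2 and Slc4a8 (6.40 and 6.57 FPKM, q = 0.901) per the authors' deposited table. Slc12a1 and Slc12a3, the cotransporters that mark the thick limb and distal tubule, stayed under 1 FPKM per the authors' deposited table.

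**Figure D5:**
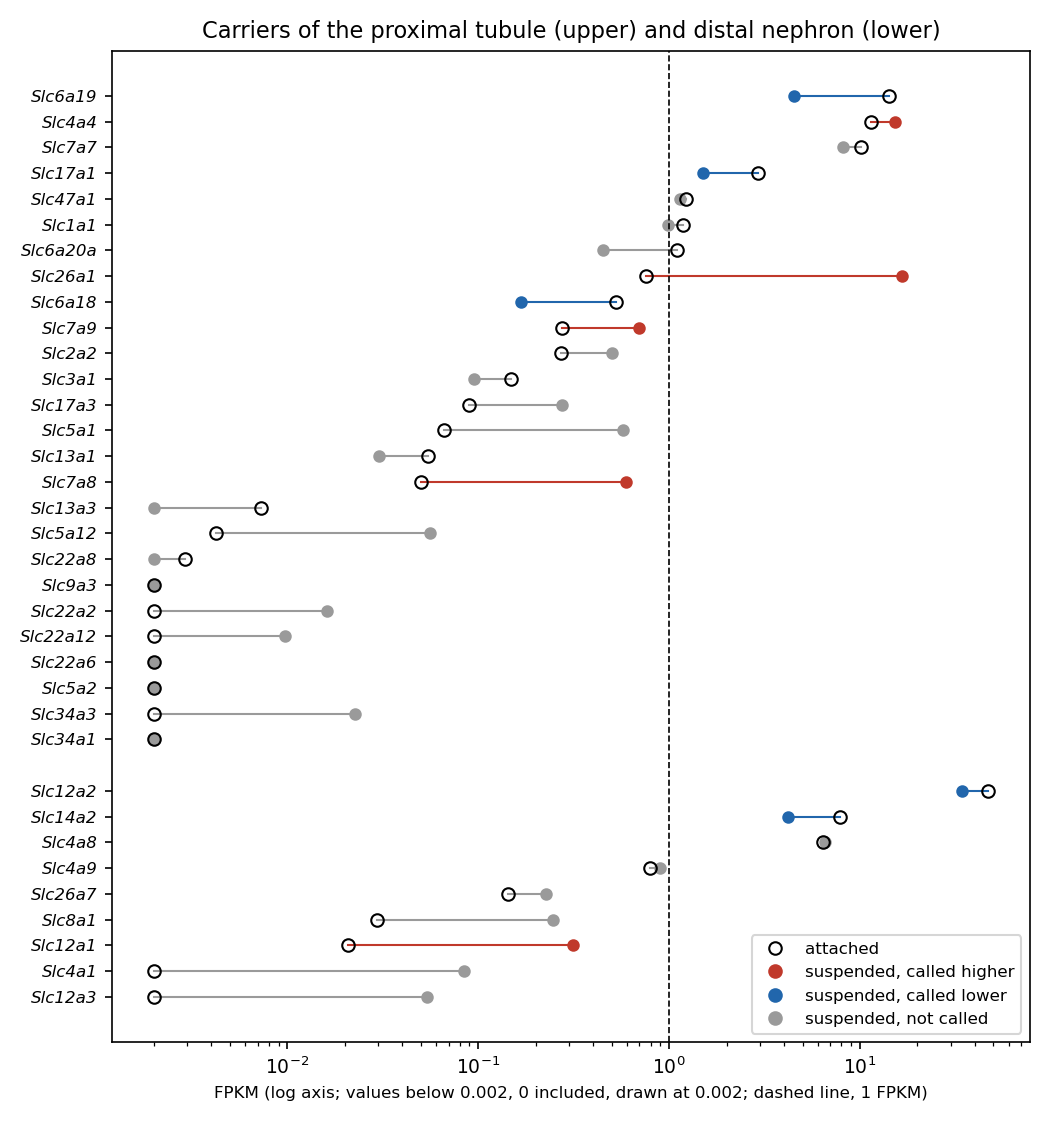
FPKM, on a log axis, of carriers known from the proximal tubule (upper block) and from the distal nephron and collecting duct (lower block), attached (open circles) and suspended (filled circles, coloured by the authors' call), from the authors' deposited table. Values below 0.002, 0 included, are drawn at 0.002; 8 of the 26 upper and 3 of the 9 lower genes reach the dashed line at 1 FPKM in either condition.

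The promoter windows hold letters that the choice of genes did not use. Of the 155 genes, 122 matched the RefSeq table, with 170 windows, and their median GC content was 61.2%, beside 52.7% for all 32851 windows. CACGTG occurred in 12.4% of the carriers' windows and in 7.15% of all windows. It was in 11 of 65 windows of genes called higher (16.9%), 6 of 59 of genes called lower (10.2%) and 4 of 46 of genes not called (8.70%). TGACNNNGC occurred in 18.2% of the carriers' windows, in 13 of 65 of those of genes called higher in 13 of 59 of those of genes called lower and in 5 of 46 of those of genes not called (10.9%), and in 12.4% of all windows. Both strands were searched, and windows of 1 gene can overlap. These shares are a description without a test.

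The other motifs searched were TGATGNAA (the C/EBP-ATF composite core), TGTTTAC (FOXO), TGANTCA (AP-1) and TGCNCNC (the metal response core). They occurred in 3.53%, 1.18%, 6.47% and 60.0% of the carriers' windows, beside 3.97%, 3.65%, 7.81% and 51.0% of all windows. The first of these was in 3.08% of windows of genes called higher, 1.69% of those called lower and 6.52% of those not called. It was found in windows of Slc1a4 and Slc23a3 (called higher), Slc17a1 (called lower), and Slc50a1 and Slc7a7 (not called). All of these but Slc1a4 were named after the search.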

How the data were processed

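RNA of cultured mouse kidney epithelial cells was sequenced in 6 libraries, 3 per condition. TopHat, Bowtie, Cufflinks 1.0.3, Cuffdiff and the build mm10 are named in the submitters' processing notes; for settings, annotation and strand, nothing was given in the sources used here. Each condition has 1 deposited FPKM per gene, and the log2 fold change, the test score, the p-value and the q-value are the authors' own, per the file headers. Depth is unknown. Deposited starts count from 0 and were moved by 1; of 13561 tested names in GENCODE M21 (GRCm38), 13547 overlapped the deposited position.

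Calls are the authors' q below 0.05, adjusted over all tested rows. No test across genes was run here, since no value per library was used. Members and lists were chosen with earlier results of these data known. Named genes were, per group of families, up to 4 rises and 4 falls among called genes of at least 5 FPKM, the 10 largest of each, the 10 highest means and the 3 just inside the limit of 1 FPKM (69 members). Every other member printed was named after its values were seen. The implied standard error is the deposited log2 fold change divided by the normal quantile of the deposited p, for 78 members whose p was above the smallest value. Of the members, 23 overlap another protein-coding gene and 6 rows hold a microRNA on the same strand, and their values are uncertain where strand was not counted. Some genes that enter the counts are not reported here. The calling code was tested on simulated data. The tools were pandas 2.3.3, NumPy 2.4.6 and SciPy 1.17.1 under Python 3.11.15, with plots by matplotlib 3.10.9. Alternatives covered the level and fold minimum, the q threshold, its adjustment, rows of the same name, the genes left out, a pseudocount and centring.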

Additional observations from a re-analysis of the deposited data

How the results depend on the processing

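With a 2-fold change required, 34 carriers were called higher and 13 lower, in place of 57 and 52. Over the other alternatives run the counts lay between 40 and 70 for higher and between 44 and 70 for lower calls, and recomputing the adjustment or keeping 1 row per name left both counts as they were. The carriers' median log2 fold change lay between -0.119 (minimum of 5 FPKM) and 0.140 (centred on all tested genes), so its sign depended on the setting. With a pseudocount of 1 it was 0.0472, no named carrier changed sign, and 3 of the 69, Slc26a6, Slc2a4rg-ps and Slc6a20a at the 1 FPKM limit, shrank by over 1.5 times on the log2 scale.

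With the 2-fold requirement, higher calls numbered 0 for the heavy chain Slc3a2, 3 for sugars, 2 for protons and anions, 2 for calcium and magnesium, 1 for phosphate, 3 for metals, 4 for vitamins and nucleosides, 1 for fatty acids and choline and 0 for family 35. Lower calls numbered 4 for amino acids, 3 for protons and anions, 1 for metals, 1 for fatty acids and choline, 1 for family 35, and 0 for monocarboxylates, organic ions and vitamins. With at least 1 FPKM in both conditions, higher calls were 2 for monocarboxylates and 4 for vitamins, and at q below 0.01 they were 3 for family 35. In the partner lists the 2-fold requirement left 0 lower calls for the sodium pump, 0 higher for chaperones, 3 higher and 0 lower for kinases and ligases, 5 higher and 0 lower for lysosomal sensing, 2 lower for the NFAT5 list and 0 lower for distal carriers. At q below 0.01, chaperones kept a count of 1 higher call and lysosomal sensing 3 lower calls.

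No paired analysis was possible because the deposited table holds 1 value per condition. For the same reason no replicate was left out in turn and no replicate block was fitted.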

Other observations

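Rows outside the set also held carriers. The organic anion transporters of the SLCO family, whose symbols do not follow the Slc and digit form and which were looked at after the other values were seen, had 3 genes of at least 1 FPKM, and all 3 were called lower per the authors' deposited table. Slco4a1, known to carry thyroid hormone, fell from 267 to 31.5 FPKM (log2 fold change -3.08, q = 0.000185) per the authors' deposited table. Slco2a1, the prostaglandin carrier, fell from 153 to 65.5 FPKM and Slco3a1 from 36.3 to 23.1 FPKM (q = 0.000185 for both) per the authors' deposited table.

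A further 6 rows name an SLC gene together with others, and their values cannot be assigned to 1 gene. The row of Mrps6 and Slc5a3 fell from 629 to 202 FPKM (q = 0.000185), and that of H2-Ke6 and Slc39a7 from 80.4 to 64.6 FPKM (q = 0.0229), per the authors' deposited table. The other 4, among them those that hold Slc39a2, Slc35a3 and Slc10a3, were not called.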
